A study of Mus musculus with 30 samples.

Results

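Wnt signalling in differentiating fat cells was described through 10 genes, all of which were in the deposited tables, out of 23109 genes or unmatched accessions. They are the ligands Wnt5a, Wnt5b, Wnt6, Wnt10a, Wnt10b and Wnt11, the secreted antagonists Sfrp1, Sfrp2 and Sfrp4, and Axin2 as a target gene. The genes were taken from a list of names that was drawn up with earlier results of these data known. Each had a single RefSeq accession, which stood for the gene. The cells are a line of mouse brown preadipocytes (C57BL/6J, homozygous floxed glucocorticoid receptor, GRf/f) from the interscapular brown fat of newborn pups, and SV40T had immortalized them. Infection with a Cre retrovirus gave receptor-deleted cells (Cre), and infection with the control retrovirus (Vec) gave control cells that carry the same floxed alleles. Both were plated 4 days ahead and induced at confluence with dexamethasone at 2 µg/ml, IBMX at 0.5 mM, indomethacin at 0.125 mM, insulin at 0.02 µM and T3 at 1 nM, given for 4 hours. Of these, dexamethasone activates the receptor and IBMX raises cAMP. The 8 RNA libraries cover uninduced cells (D0), the end of the 4 hours (4h), day 2 (D2) and day 7 (D7), 1 for each genotype and time. What medium followed the mix was not given in the sources used here, and the set has no 4h library of cells that were not induced. The labels list 30 samples, and the 22 for ChIP were not analysed here.

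Wnt proteins are secreted, lipid-modified ligands that bind Frizzled receptors. With the co-receptors LRP5 and LRP6, some of them (the canonical ligands) stabilise β-catenin, which switches on targets such as Axin2, while others, Wnt5a and Wnt11 among them, act mostly without β-catenin. Canonical Wnt signalling, for which Wnt10b is the best-known ligand in fat, restrains the conversion of preadipocytes into adipocytes. Secreted frizzled-related proteins (Sfrp) carry a Frizzled-like domain, bind Wnt proteins outside the cell and can keep them from their receptors.

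The libraries held 7.7 to 28.9 M reads, and the shallowest were Cre 4h (7.7 M) and Vec 4h (12.3 M). Levels are in RPKM, reads per kilobase of transcript and per M reads in the library, so they can be compared between genes. Nr3c1, which encodes the glucocorticoid receptor, checks the deletion. It stood at 4.81, 4.04, 8.07 and 6.67 RPKM in Cre at D0, 4h, D2 and D7, against 24.3, 12.9, 21.3 and 32.1 RPKM in Vec. The 8 preadipocyte and fibroblast markers all exceeded an RPKM of 1 in every library, with Pdgfra between 20.0 and 63.4 RPKM. Of 8 brown adipocyte markers, 6 were tested by edgeR over all libraries. At D7 against D0, 3 of them rose (Cox8b, Cidea and Ppargc1a), while 8.09% of all genes tested changed. Cox8b and Cidea reached an RPKM of 1 only in the D7 libraries and entered the test through them. Elovl3 fell by 4.04 on the log2 scale from D2 to D7 (edgeR, adjusted p = 0.0127). It reached an RPKM of 1 only in the D2 libraries (1.204 in Cre, 6.398 in Vec), so it entered the test through the libraries where it was high. Dio2 stayed under an RPKM of 1. Cox8b reached 41.25 RPKM in Cre and 49.73 in Vec at D7, Cidea 1.29 and 7.36, and Ppargc1a 2.52 and 5.54. Ebf2 lay between 8.23 and 19.2 RPKM in the 8 libraries. Ucp1, the defining marker, had 0 reads in Cre D0, Vec D0 and Cre 4h and at most 22 reads (0.882 RPKM, Vec D7). Markers of leukocytes summed to at most 1.56 RPKM, of endothelium to 3.15 and of epithelium to 0.239, with Krt14 at 0 reads throughout. The 6 skeletal muscle markers summed to between 3.51 and 24.0 RPKM, with Acta1 the highest, and the 5 Schwann cell and neuron markers to between 2.31 and 16.6, with Tubb3 the highest. These are bulk libraries, in which fewer cells of a type and less RNA per cell cannot be told apart.

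Differences between times were tested over both genotypes by edgeR's quasi-likelihood test on the read counts of 12581 genes, with Benjamini-Hochberg adjustment over all of them and a threshold of 0.05. The error of this additive model is the departure from a common time course, so its p-values do not measure the spread between cultures, and a gene whose time course differed between Cre and Vec had a large error. Of the 10 genes, 7 reached an RPKM of 1 in at least 2 libraries and were tested. Wnt10b passed this filter only through its D0 libraries and Wnt11 only through its 4h libraries, and Wnt6, Wnt10a and Axin2 did not pass. Between 4h and D0, Wnt11 rose and Wnt10b fell, while 25.3% of all genes tested changed, 12.2% upwards and 13.1% downwards. Between D2 and D0, Wnt11 rose and Wnt5a and Wnt10b fell, while 38.7% of all genes changed, 17.7% upwards and 21% downwards. Between D7 and D0 none of the 7 passed the threshold, while 8.09% of all genes did. An unadjusted p under 0.05 was found for 4 of them (Wnt10b, Wnt11, Sfrp1, Sfrp2) and for 30.5% of all genes, and DESeq2 called 3 (Wnt11, Sfrp1, Sfrp2) and 16.7% of all genes. From 4h to D2, Wnt5a and Wnt11 fell (33.4% of all genes changed, 18% downwards), and from D2 to D7, Wnt5a, Sfrp1 and Sfrp2 rose (24.3% of all genes changed, 15.4% upwards). With 7 genes tested, these counts are too small to be set apart from the background. The comparisons with D0 share the D0 libraries, and those with D2 share the D2 libraries. The preadipocyte and fibroblast markers moved over time as well: 5 of the 8 fell at D2 against D0 (median -1.56 on the log2 scale), 5 fell from 4h to D2 (median -1.54) and 5 rose from D2 to D7 (median 1.29). Their part in the changes of the Wnt and Sfrp genes was not tested. Fits that leave out 1 library called 0 to 3117 of all genes at 4h against D0 (3188 with all 8 libraries), 1018 to 4914 at D2 against D0 (4867), 1232 to 4285 at D2 against 4h (4202) and 519 to 2736 at D7 against D2 (3058). Calls of other genes were thus lost in such fits as well.

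**Figure D1:**
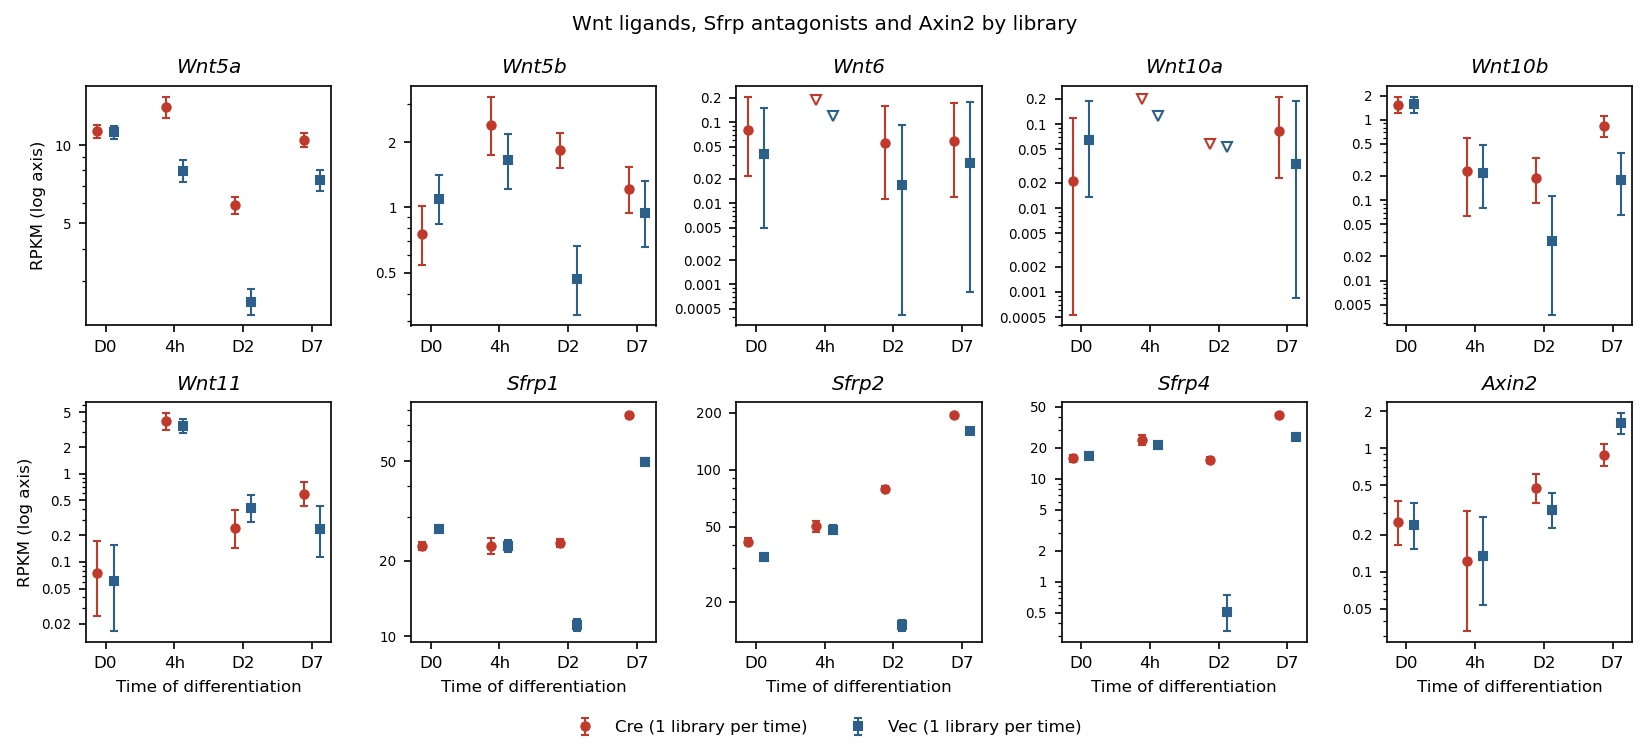
Levels of the 10 genes in each of the 8 libraries, in RPKM on log axes that differ between panels, for Cre (red circles) and Vec (blue squares) at D0, 4h, D2 and D7; bars are 95% exact Poisson intervals on the reads (counting error only), and open triangles stand at the level of 3 reads for a library with 0 reads. Wnt11 peaks at 4h and Wnt10b at D0, and the 3 Sfrp genes are lowest in Vec D2.

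Wnt11, a ligand that acts mostly without β-catenin, was a transient gene of the first hours. It had 0.0744 RPKM in Cre and 0.0611 in Vec at D0, which are 5 and 4 reads. At 4h it had 3.96 RPKM in Cre and 3.51 in Vec, or 85 and 120 reads. At D2 it had 0.243 and 0.410 RPKM, and at D7 0.595 and 0.236 RPKM, in Cre and Vec. The 4h libraries thus stood apart from the other 6 in both genotypes, and Cre and Vec did not differ at 4h beyond counting error (Cre over Vec 1.13, 95% interval 0.843 to 1.5). Relative to D0, Wnt11 at 4h was 53.2-fold higher in Cre (21.9 to 168) and 57.5-fold higher in Vec (21.9 to 214). The fitted log2 change was 5.84 (SE 0.54, adjusted p = 0.0064), and it fell by 3.61 from 4h to D2 (SE 0.43, adjusted p = 0.0046). D2 lay above D0 by 2.23 (SE 0.60, adjusted p = 0.032), and D7 above D0 by 2.71 (SE 0.60, adjusted p = 0.0501), just outside the threshold. Since Wnt11 entered this test only through its 4h libraries, the fit without a filter on low values, over 19301 genes, is given too. There the change was 5.84 at 4h against D0 (SE 0.53, adjusted p = 0.0019; 15.6% of all genes in that fit changed), -3.58 at D2 against 4h (adjusted p = 0.0017; 22.3%), 2.26 at D2 against D0 (adjusted p = 0.025; 26.7%) and 2.69 at D7 against D0 (adjusted p = 0.034; 7.4%). With the filter, the change at 4h was 5.78 without Vec D0 (adjusted p = 0.0711) and 5.75 without Vec 4h (adjusted p = 0.0528), in fits that called 0 and 82 of all genes; without any other single library it passed the threshold. The D2 call was lost without Cre D0, Vec D0, Cre 4h, Vec 4h or Vec D2 (adjusted p from 0.054 to 0.182) and in limma on log2(RPKM + 1) (0.31, adjusted p = 0.234).

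Because IBMX and dexamethasone are in the mix, the stretches upstream of the ligands that changed within 4 hours were searched for parts of the sites of CREB and of the glucocorticoid receptor. The 250 bases before each RefSeq start (GRCm38.p6) were read on both strands for the partial CRE motif TGACG, for AGAACA, a single arm of the palindromic receptor site, and for the core CTTTGA of TCF/LEF, the partners of β-catenin. The table held such a stretch for 6 of the 10 genes. Of 32851 stretches of this length, 17.8% held TGACG, 16.1% held AGAACA and 13.8% held CTTTGA. These shares were not matched for GC content, whose median over all stretches was 52.4%. It was 70.8% and 56.8% in the 2 stretches of Wnt11, 66.8% in that of Wnt10b and 69.2% in that of Axin2. Wnt11 has 2 annotated starts. Its first stretch lies at chr7:98834862-98835111 and the second at chr7:98838595-98838844, both on the + strand. They are printed 5′ to 3′ with the matches in capitals, on either strand.
Wnt11, first start: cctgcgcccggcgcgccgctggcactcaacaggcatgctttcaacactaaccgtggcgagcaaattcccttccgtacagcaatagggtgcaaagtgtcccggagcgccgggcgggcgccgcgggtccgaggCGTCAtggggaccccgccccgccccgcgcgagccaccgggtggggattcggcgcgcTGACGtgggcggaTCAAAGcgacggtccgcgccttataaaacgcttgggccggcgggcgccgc
Wnt11, second start: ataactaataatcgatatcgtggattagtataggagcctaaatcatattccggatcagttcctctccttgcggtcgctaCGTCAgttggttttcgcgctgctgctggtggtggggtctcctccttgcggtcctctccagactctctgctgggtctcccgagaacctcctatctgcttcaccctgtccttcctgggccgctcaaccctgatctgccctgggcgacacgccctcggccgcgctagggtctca
The first stretch holds 2 partial CRE motifs, at -119 to -115 and at -63 to -59 from the start, and 1 TCF/LEF core at -50 to -45. The second holds 1 partial CRE motif, at -171 to -167, and neither holds the receptor arm. These are matches of letters in a window, and whether any of them is bound was not looked at.

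Wnt10b, the ligand known for holding preadipocytes back, was at its highest before induction. It had 1.53 RPKM in Cre and 1.55 in Vec at D0 (82 and 81 reads), a ratio of 0.987 (0.717 to 1.36). At 4h it had 0.233 RPKM in Cre and 0.220 in Vec, and at D2 0.186 in Cre and 0.0311 in Vec, the last from 2 reads. At D7 it was 0.836 RPKM in Cre (46 reads) and 0.178 in Vec (6 reads). Both D0 libraries lay above all others, and among the later ones Cre D7 was highest. Against D0, the 4h level was 6.56-fold lower in Cre (2.47 to 24.6) and 7.04-fold lower in Vec (3.1 to 19.8). Wnt10b fell by 2.66 on the log2 scale at 4h (SE 0.73, adjusted p = 0.046) and fell by 3.98 at D2 (SE 0.69, adjusted p = 0.0092). D7 differed from D0 by -1.63 (SE 0.59, adjusted p = 0.131). Wnt10b had entered this test only through its D0 libraries, and without the filter on low values it gave -2.67 at 4h (SE 0.69, adjusted p = 0.04) and -3.97 at D2 (SE 0.66, adjusted p = 0.0048). Cre D7 held 4.71 times the level of Vec D7 (2.01 to 13.5). The 4h call was lost without any single D0, 4h or D2 library (adjusted p from 0.0543 to 0.217) or without a genotype term (0.0691), and the D2 call without Vec D0 (0.0544) or Vec D2 (0.057). The stretch upstream of Wnt10b, chr15:98778151-98778400 on the - strand, holds 1 partial CRE motif, at -6 to -2, in capitals below, and no TCF/LEF core or receptor arm.
Wnt10b: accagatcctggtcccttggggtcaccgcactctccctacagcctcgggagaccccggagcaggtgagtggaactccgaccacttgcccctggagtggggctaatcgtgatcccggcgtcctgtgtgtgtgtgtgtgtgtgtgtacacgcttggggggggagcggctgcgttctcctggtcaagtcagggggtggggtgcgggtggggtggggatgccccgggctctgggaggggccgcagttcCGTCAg

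Wnt5a, which acts mostly without β-catenin, was the ligand with the highest level in every library. It had 11.4 RPKM in Cre and 11.2 in Vec at D0, 14.03 and 7.94 at 4h, 5.87 and 2.50 at D2, and 10.5 and 7.32 at D7. The 2 D2 libraries were the lowest of their genotypes, and Vec D2 the lowest of all. Wnt5a fell by 1.57 at D2 against D0 on the log2 scale (SE 0.29, adjusted p = 0.011) and by 1.54 from 4h to D2 (SE 0.29, adjusted p = 0.0132), and it rose by 1.28 from D2 to D7 (SE 0.29, adjusted p = 0.0274). The level at D2 was 1.94-fold lower than at D0 in Cre (1.76 to 2.13) and 4.49-fold lower in Vec (3.96 to 5.11). The ratio of Cre to Vec was 1.01 at D0 (0.932 to 1.1), 1.77 at 4h (1.54 to 2.02), 2.35 at D2 (2.05 to 2.70) and 1.43 at D7. At 4h the difference in log2(RPKM + 1) was 0.75 for Wnt5a. Over all genes its median was 0.112, with a standard deviation of 0.45. The D2 call against D0 was lost without Vec D0 (adjusted p = 0.0661) or Vec D2 (0.0502), that against 4h without Cre 4h (0.0577), Vec 4h (0.0631) or Vec D2 (0.0516), and the D7 call against D2 without Vec D2 (0.131), Cre D7 (0.0838), Vec D7 (0.106) or a genotype term (0.093).

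Wnt5b, a close relative of Wnt5a, was much lower, between 0.468 and 2.41 RPKM. In Cre it had 0.753, 2.41, 1.85 and 1.21 RPKM at D0, 4h, D2 and D7, and in Vec 1.09, 1.65, 0.468 and 0.945. Vec D2 was again the lowest library, whereas Cre D2 lay above both D0 libraries. No time comparison of Wnt5b passed the test; that of 4h with D0 gave 1.16 (SE 0.59, adjusted p = 0.189). Cre held 3.95 times the Vec level at D2 (2.65 to 6.03, from 116 and 32 reads), and the intervals of the ratio included 1 at the other 3 times. Wnt6 and Wnt10a were at the edge of detection. Wnt6 had 14 reads over the 8 libraries, with 0.0168 to 0.0803 RPKM outside 4h and 0 reads in both 4h libraries, where 3 reads would be 0.188 RPKM in Cre and 0.118 in Vec. Wnt10a had 9 reads in all, with 0 in both 4h and both D2 libraries (3 reads would be 0.199 and 0.0577 RPKM in Cre, 0.125 and 0.053 in Vec) and 0.0212 to 0.0825 RPKM elsewhere. No difference in either gene was detectable at this depth.

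All 19 mouse Wnt ligands together came to 20.3 RPKM in Cre and 20.9 in Vec at D0, 26.6 and 17.4 at 4h, 12.3 and 5.62 at D2, and 19 and 12.7 at D7. The sum was thus lowest at D2 in both genotypes and higher in Cre than in Vec at all 3 times after induction. Wnt5a alone made up 44.5 to 57.6% of it. Wnt11 took 14.9% in Cre and 20.2% in Vec at 4h and at most 7.30% in any other library, and Wnt10b took 7.53% in Cre D0 and 7.41% in Vec D0. Of the 13 ligands outside the list, Wnt16 had the largest share at D0, 15.1% in Cre and 17.9% in Vec.

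**Figure D2:**
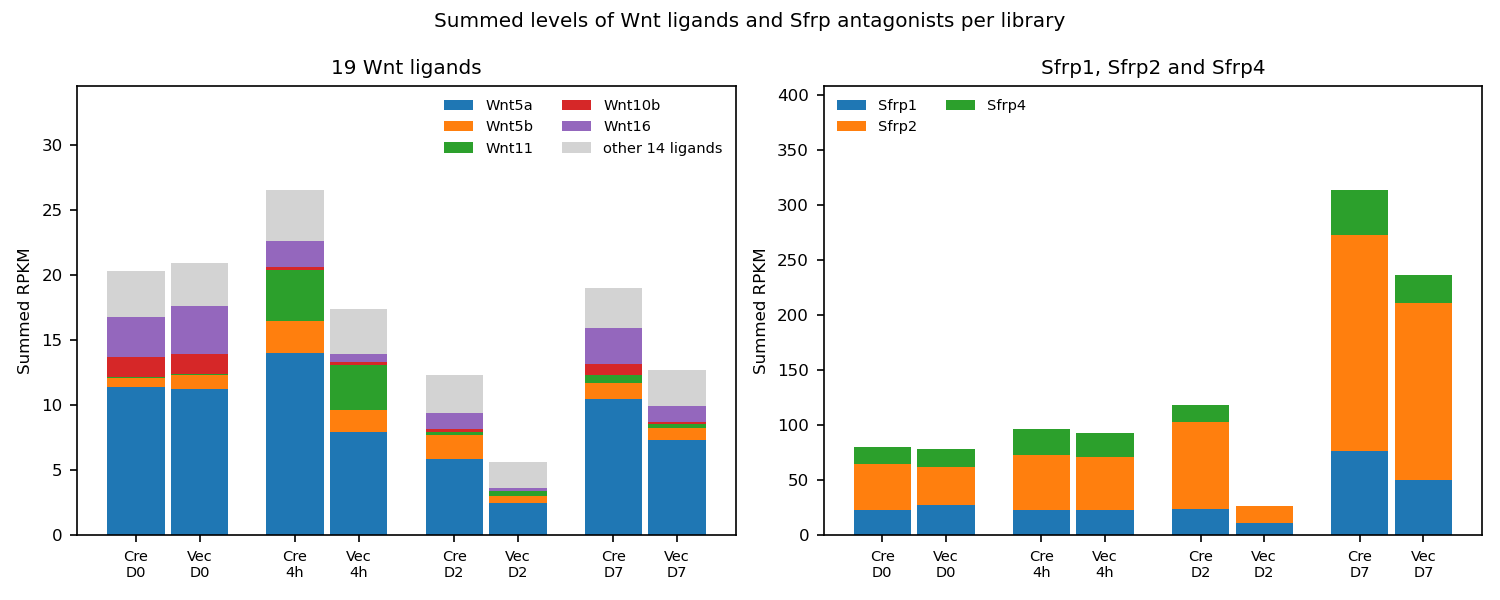
Stacked levels (RPKM, linear axis from 0) of the 19 Wnt ligands on the left and of Sfrp1, Sfrp2 and Sfrp4 on the right, one bar per library, Cre left of Vec at each time. Wnt5a is the largest part of every ligand bar, the Wnt11 part is large at 4h only, and the Sfrp bar of Vec D2 (26.6 RPKM) is the lowest of the 8.

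Each of the 3 Sfrp antagonists exceeded Wnt5a, the leading ligand, in every library but Vec D2, where Sfrp4 did not. Sfrp2 had 41.5 RPKM in Cre and 34.5 in Vec at D0, and 50.1 and 48.1 at 4h. At D2 it had 79.1 RPKM in Cre but 15.0 in Vec, and at D7 it reached 196 in Cre and 161 in Vec. Sfrp2 in Cre was therefore higher at each later time, whereas in Vec it had a low point at D2. Sfrp1 had 22.9 RPKM in Cre and 26.9 in Vec at D0, 23.0 in both at 4h, 23.6 and 11.1 at D2, and 76.3 and 49.8 at D7. Cre thus stayed within 22.9 to 23.6 RPKM until D2, and Vec D2 was the lowest library. Sfrp4 had 15.8 RPKM in Cre and 16.8 in Vec at D0, 23.7 and 21.4 at 4h, 15.2 and 0.512 at D2, and 41.7 and 25.7 at D7. Its 26 reads in Vec D2 stand against 709 in Cre D2, and that library was the sole one below 15 RPKM.

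From D2 to D7, Sfrp1 rose by 2.01 on the log2 scale (SE 0.35, adjusted p = 0.0141) and Sfrp2 by 2.25 (SE 0.62, adjusted p = 0.0471), while Sfrp4 gave 2.58 (SE 1.09, adjusted p = 0.137). Within a genotype, the D7 level of Sfrp2 was 2.48 times that at D2 in Cre and 10.7 times in Vec, and that of Sfrp4 2.74 times in Cre and 50.1 times in Vec. Against D0 the D7 level of Sfrp2 was close in the genotypes, 4.72 times in Cre (4.49 to 4.95) and 4.67 times in Vec (4.41 to 4.94), whereas Sfrp1 stood at 3.33 times in Cre (3.18 to 3.48) and 1.85 times in Vec (1.76 to 1.95). The D7 against D0 comparison gave 1.39 for Sfrp1 (adjusted p = 0.0629) and 2.33 for Sfrp2 (adjusted p = 0.0695). Without Vec D2, the D7 against D2 change of Sfrp1 was 1.53 (adjusted p = 0.0642) and that of Sfrp2 1.32, and without Cre D2 that of Sfrp2 was 3.61. Without Cre D7 the adjusted p was 0.0646 for Sfrp1 and 0.105 for Sfrp2; for Sfrp2 it also missed the threshold without Vec D7 (0.145), Cre D0 (0.0796), Vec D0 (0.0774), Cre 4h (0.0544), Vec 4h (0.0542) or a genotype term (0.0778).

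At D2 the genotypes took different courses. Against D0, Sfrp4 at D2 stood at 0.962 times its level in Cre (0.864 to 1.07) and was 32.7-fold lower in Vec (22.2 to 50.5). Sfrp2 at D2 stood at 1.90 times its D0 level in Cre (1.80 to 2.01) and at 0.435 times in Vec (0.400 to 0.472). Sfrp1 stood at 1.03 times in Cre (0.972 to 1.09) and at 0.413 times in Vec (0.387 to 0.440). The additive fit, which averages these courses, gave -1.55 for Sfrp4 (SE 1.10, adjusted p = 0.301), 0.08 for Sfrp2 (adjusted p = 0.927) and -0.62 for Sfrp1 (adjusted p = 0.197). Leaving out Cre D2 gave -4.91 for Sfrp4 (adjusted p = 0.0074) and -1.29 for Sfrp2 (adjusted p = 0.0168), while leaving out Vec D2 gave -0.19 and 1.00 (adjusted p = 0.0328 for Sfrp2), so 1 library decides the sign for Sfrp2; the lone D2 library is assumed to vary like the other groups. With 1 library per genotype and time, the difference between the courses was not tested.

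**Figure D3:**
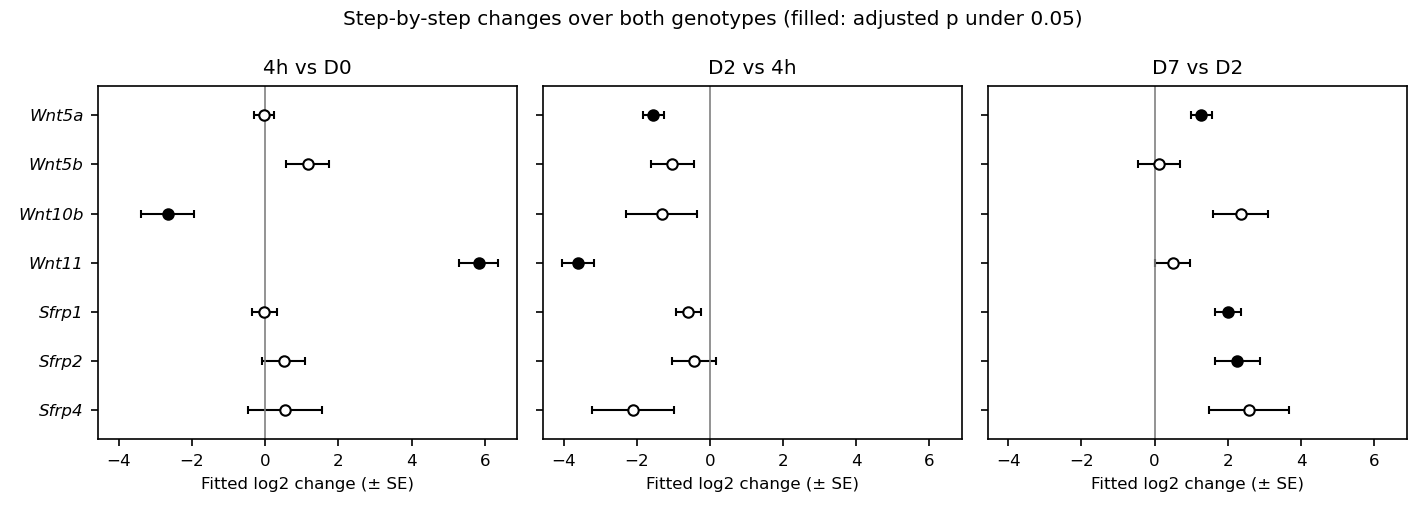
Fitted log2 change over both genotypes (points, with bars of ± 1 SE) for the 7 genes tested, from D0 to 4h, 4h to D2 and D2 to D7; filled points have an adjusted p under 0.05 (edgeR). Wnt11 moves by 5.84 and then -3.61, and Sfrp1 and Sfrp2 by 2.01 and 2.25 in the last step.

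Axin2, a scaffold of the complex that degrades β-catenin and itself switched on by β-catenin, was low before day 7. It had 0.253 RPKM in Cre and 0.240 in Vec at D0, 0.122 and 0.134 at 4h, and 0.478 and 0.317 at D2. At D7 it had 0.884 RPKM in Cre (93 reads) and 1.59 in Vec (103 reads), the latest libraries being the highest in each genotype. Relative to D0, the D7 level was 3.49-fold higher in Cre (2.24 to 5.62) and 6.64-fold higher in Vec (4.23 to 10.8). Cre D7 held 0.555 times the level of Vec D7 (0.414 to 0.741), the opposite direction to the Sfrp genes, Wnt5a, Wnt10b and Wnt11 at D7. Axin2 reached an RPKM of 1 in 1 library and was therefore not in the main test; in the fit without a filter on low values it rose by 2.37 from D0 to D7 (SE 0.40, adjusted p = 0.0162; 7.4% of all genes in that fit changed) and by 1.68 from D2 to D7 (SE 0.39, adjusted p = 0.0233; 17.8%). The stretch upstream of Axin2, chr11:108920099-108920348 on the + strand, is shown as that of the target gene. It holds 1 receptor arm AGAACA, at -152 to -147, in capitals, and no CTTTGA.
Axin2: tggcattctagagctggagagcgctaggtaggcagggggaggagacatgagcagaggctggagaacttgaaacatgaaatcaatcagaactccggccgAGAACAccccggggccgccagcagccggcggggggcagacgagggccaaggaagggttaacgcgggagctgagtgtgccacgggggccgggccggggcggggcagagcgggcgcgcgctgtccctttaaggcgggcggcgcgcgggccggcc

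Cre was set against Vec at each time by size only, as no test is possible between single libraries. The limit was a difference of 1 in log2(RPKM + 1), and genes under an RPKM of 1 in both libraries were left aside. At D0, 0 of 6 genes measured were counted (0.433% of all genes were), and at 4h 0 of 6 (4.24% of all). At D2, 3 of 5 were counted, all higher in Cre, while 4.09% of all genes were counted and 2.55% were higher in Cre. They were Sfrp4 (a difference of 3.42), Sfrp2 (2.32) and Sfrp1 (1.02, just inside the limit), and Wnt5a (0.97) and Wnt5b (0.95) were just outside it. The median difference over the 5 genes measured was 1.02 at D2, against -0.044 over all genes measured by the same rule. It was 0.58 over all 10 genes of the list, which include those under an RPKM of 1 in both libraries. As ratios of RPKM, Cre over Vec at D2 was 29.7 for Sfrp4 (20.1 to 45.8), 5.27 for Sfrp2 (4.90 to 5.67) and 2.12 for Sfrp1 (1.99 to 2.27). Wnt10b gave 5.99 with a wide interval (1.31 to 55.6), Axin2 1.51 (0.98 to 2.34) and Wnt11 0.594 (0.315 to 1.09), the last 2 with intervals that include 1. At D7, 0 of 6 were counted (4.5% of all genes), although Sfrp4 (1.63), Sfrp1 (1.53), Wnt5a (1.43) and Sfrp2 (1.22) were still higher in Cre as ratios. The pooled genotype term over all 4 times called 0 of the 7 genes tested and 0% of all genes (1501 of 12581 at an unadjusted p under 0.05, and 19 by DESeq2). This edgeR term did not call Nr3c1, the deleted gene, either (-1.96 on the log2 scale, unadjusted p = 5.4e-05, adjusted p = 0.341). Its lack of calls therefore does not show that genotype had no effect. Of the 7 genes, Wnt5a came nearest, at 0.60 on the log2 scale (SE 0.20, unadjusted p = 0.0248, adjusted p = 0.41).

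The change from D0 differed by at least 1 between Cre and Vec for 4 of 6 genes measured at D2, all more positive in Cre: Sfrp4 (3.5), Sfrp2 (2.06), Sfrp1 (1.24) and Wnt5b (1.21). That was so for 4.2% of all genes, 2.53% in this direction. Neither at 4h (0 of 7, against 4.44% of all genes) nor at D7 (0 of 7, against 4.82%) was a gene of the list counted. Markers of the stromal state also differed between Cre and Vec, but unevenly. Differences in log2(RPKM + 1) of the 8 preadipocyte and fibroblast markers ranged from 0.29 (Thy1) to 1.43 (Col1a1) at D2. At D7 they ranged from -0.03 (Ly6a) to 1.37 (Dlk1). Col1a1, Col1a2 and Col3a1 made up most of each sum of these markers below, with 661.6, 453.7 and 563.7 RPKM in Cre D2. At D2 the 8 preadipocyte and fibroblast markers summed to 1899 RPKM in Cre and 879 in Vec, with Col1a1 and Col1a2 past the 2-fold limit. The 8 adipocyte markers summed to 2122 RPKM in Cre and 2369 in Vec at D2. Of these, only Adipoq was past the limit, and it was higher in Cre (143.8 RPKM) than in Vec (59.7). Differences of the adipocyte markers at D2 ranged from -0.94 (Cidec) to 1.25 (Adipoq), with a median of -0.12. At D7 the preadipocyte markers summed to 3728 RPKM in Cre and 2069 in Vec, and the adipocyte markers to 2679 in Cre and 6820 in Vec, with 8 of 8 at least 2-fold lower in Cre (3.12% of all genes were). The part of these shifts in the Wnt and Sfrp values was not tested.

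**Figure D4:**
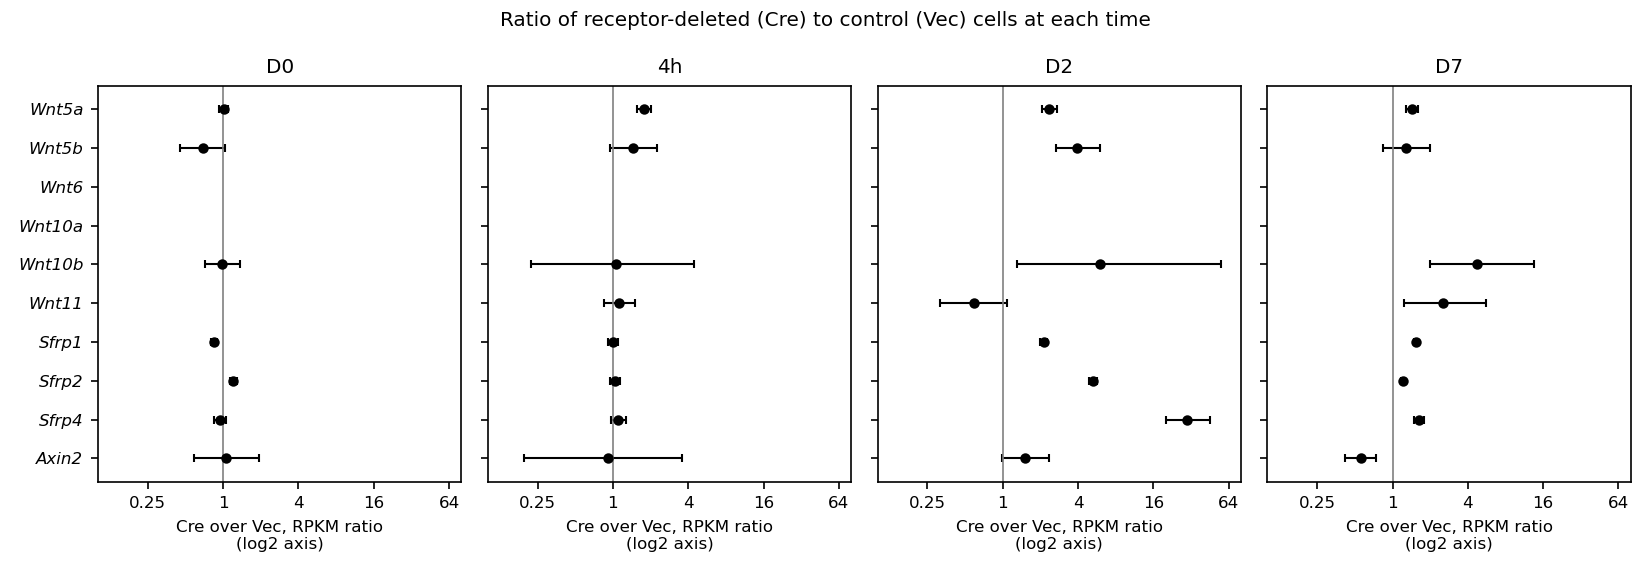
Ratio of Cre to Vec (RPKM, log2 axis) for each gene at D0, 4h, D2 and D7, with 95% exact conditional binomial intervals on the reads of the 2 libraries (counting error only); genes with fewer than 10 reads in the pair, such as Wnt6 and Wnt10a, have no point. At D2, Sfrp4 (29.7), Sfrp2 (5.27) and Wnt5b (3.95) lie right of 1, and at D7 Axin2 (0.555) lies left of it.

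The rest of the pathway was counted in 5 further lists, beside which stand the shares of all genes tested: 12.2% rose and 13.1% fell at 4h, 17.7% rose and 21% fell at D2, and 8.09% changed at D7, all against D0. Of the 13 other Wnt ligands, 4 were tested; 0 rose and 1 fell at 4h, 0 rose and 2 fell at D2, and none changed at D7, all against D0. Wnt2 fell by 4.25 on the log2 scale from 4h to D2. It reached an RPKM of 1 only at 4h (1.963 in Cre, 1.735 in Vec), so it entered the test through the libraries where it was high. Wnt16 fell by 2.56 at D2 against D0, and Wnt9a fell by 1.97 at 4h against D0. Of 10 other secreted antagonists, 3 were tested; 1 rose at 4h, 1 rose and 1 fell at D2, and 1 rose at D7, all against D0. Notum, which removes the lipid from Wnt proteins, rose by 2.61 at D7 against D0. It reached an RPKM of 1 only in Cre after induction (1.285, 1.214 and 1.323 at 4h, D2 and D7) and entered the test through those libraries. Dkk3 fell by 2.59 from 4h to D2. Dkk2, which binds LRP5 and LRP6, rose by 2.45 from D2 to D7. Dkk2 was also at least 2-fold higher in Cre than in Vec at D7, at 37.6 and 15.7 RPKM, as was Dkk3, at 14.9 and 6.69 RPKM. Each of these changes over time passed the same test, with adjusted p from 0.003 to 0.028.

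Among 24 receptors, co-receptors and R-spondins, 18 were tested; 6 rose and 1 fell at 4h, 3 rose and 4 fell at D2, and 3 rose and 0 fell at D7, all against D0. Over all genes, 12.2% rose and 13.1% fell at 4h, 17.7% rose and 21% fell at D2, and 8.09% changed at D7. The receptor gene Fzd4 rose by 2.44 at D2, Fzd6 fell by 3.51 from 4h to D2, Lgr6, a receptor of R-spondins, rose by 4.59 from D2 to D7, and the R-spondin Rspo2, which strengthens Wnt signals, fell by 2.47 at D2. Rspo2 at D2 had 5.58 RPKM in Cre and 1.94 in Vec, so it was low in the same library as the Sfrp genes. Of 16 genes of ligand secretion and relay, 14 were tested; 1 rose and 4 fell at 4h, 2 rose and 3 fell at D2, and 0 rose and 1 fell at D7. Porcn, the enzyme that attaches the lipid to Wnt proteins, rose by 1.66 at D2, and Wls, which carries them to the surface, fell by 1.31. Porcn ran against the Sfrp genes at D2, with 2.59 RPKM in Cre and 7.57 in Vec. Tcf7l1 rose by 1.62 from 4h to D2 and Tcf7l2 fell by 1.05 at 4h.

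Of 16 target and feedback genes of β-catenin, 10 were tested; 3 rose and 2 fell at 4h, 2 rose and 4 fell at D2, and 1 rose and 1 fell at D7. Of all genes, 25.3%, 38.7% and 8.09% changed in either direction at these times. Ccnd1, a cell cycle gene, fell by 4.09 and Ccn4 by 2.45 at D2, and Ccn5 rose by 4.99 from D2 to D7. Ccn5 at D2 had 1.59 RPKM in Cre and 0.176 in Vec, and Apcdd1, an inhibitor of Wnt signalling at the membrane, had 37.1 and 17.1, both at least 2-fold higher in Cre. Myc had 42.7 RPKM in Cre and 92.9 in Vec at D2 and was at least 2-fold lower in Cre. These targets thus did not share 1 direction at D2 between the genotypes. Adjusted p of the changes over time named for receptors, relay genes and targets lay between 0.0019 and 0.049 by the same test, and Notum, Lgr5, Tcf7 and Lef1 stand in 2 lists and were counted in both. Median differences between Cre and Vec at D2 were 0.47 for the other ligands, 0.38 for the other antagonists, 0.18 for the receptors, 0.14 for secretion and relay and -0.34 for the targets, all over the genes measured.

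**Figure D5:**
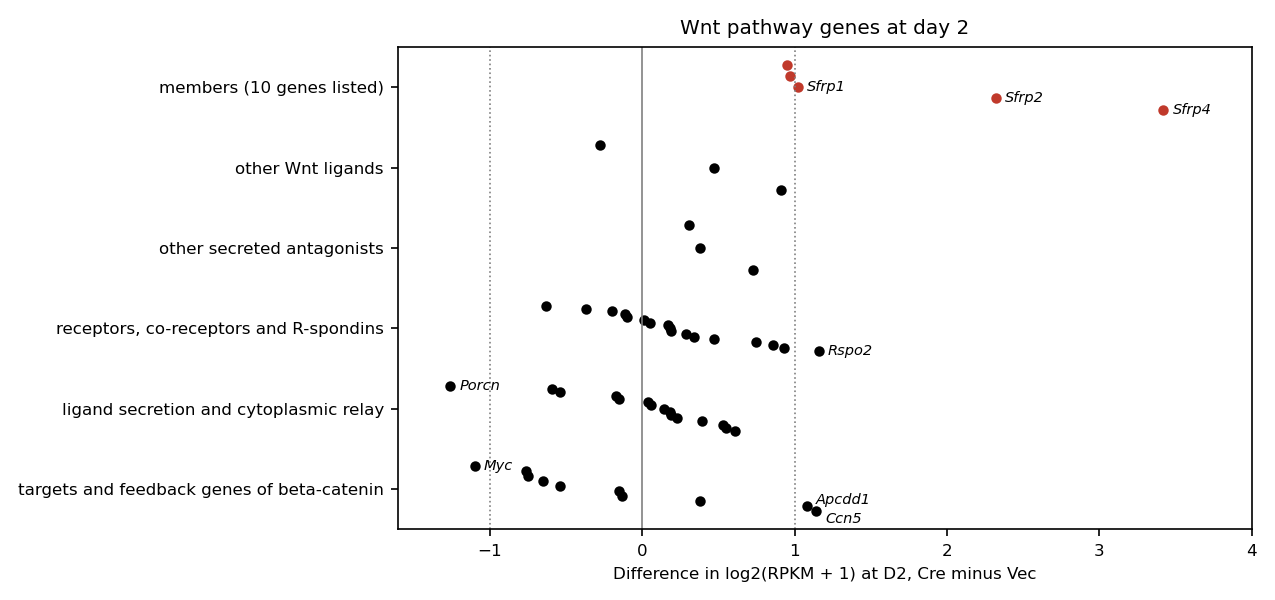
Difference between Cre and Vec at D2 in log2(RPKM + 1) for genes of 6 lists with an RPKM of 1 in at least 1 of the libraries; dotted lines mark 1 and -1, and genes beyond them are named. Sfrp4 (3.42) and Sfrp2 (2.32) lie farthest to the right, and Porcn and Myc lie left of -1.

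The genes whose levels ran most alike to each member over the 8 libraries were taken from 5336 genes by Pearson's r of log2(RPKM + 1), as a description over points that share 2 genotypes and 4 times. Wnt11 was matched most closely by Nr4a3 (r = 0.996), an early gene of cAMP signalling, then by Slc2a13 (0.985) and Snai1 (0.983). Wnt10b was matched by Flnc and Rab27a (0.989 each) and Pik3cd (0.988). Wnt5a was matched by the mesenchymal transcription factor gene Prrx1 (0.984) and by Rspo2 and Mcc (0.982 each). Wnt5b had looser partners, of which Ccl5 was first (0.918). Sfrp1 was matched by Ptpn5 (0.984), Eif4e3 (0.981) and Tnnc1 (0.968), Sfrp2 by Icam1, Sod3 and Eif4e3 (0.945 each), and Sfrp4 by Reck and Pcdhb22 (0.968 each) and Nudt4 (0.967). Among the members, Sfrp1 and Sfrp2 ran most alike (0.93), Wnt5a and Sfrp4 gave 0.83, and Wnt10b and Wnt11 gave -0.43.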

How the data were processed

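Per the file headers, the authors deposited 1 table per RNA library that lists, for every RefSeq accession, its read count and its RPKM. The submitters' processing notes name mm9 as the assembly, CASAVA 1.8.2 and SICER; aligner, read counter and use of strand were not given in the sources used here. Read count divided by RPKM gave each library's total and whole transcript lengths (within 0.00042 nucleotides). Of 29082 accessions, 28432 (97.8%) matched a symbol in a RefSeq table of GRCm38.p6, and the accession with the most reads stood for a gene. These genes held 69.0 to 74.0% of a library's reads.

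Levels and sizes use the deposited RPKM, and tests the counts. Time and genotype were fitted additively over the 8 libraries by edgeR 4.0.16 quasi-likelihood (R 4.3.3, TMM scaling), with 3 residual degrees of freedom and a common biological coefficient of variation of 0.176; p-values were adjusted over all 12581 genes. Ratios carry 95% exact conditional binomial (Clopper-Pearson) intervals and levels exact Poisson intervals, computed with scipy 1.17.1; both cover counting error only. The script was tested on simulated data. Alternatives were limma 3.58.1 on log2(RPKM + a pseudocount), DESeq2 1.42.0, other filters and scaling, summed accessions, no genotype term and leaving out each library. Median-of-ratios scaling shifted the log2 values of Vec 4h by -0.119 and of other libraries by at most 0.088. The members and the gene lists were chosen with earlier results of these data known. The members, and in each further list at most 4 genes that passed the test with a log2 change of at least 1, are named; Dkk2 and Dkk3 at D7, Apcdd1 and Myc were named after their values were seen. Sequences are RefSeq's.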

Additional observations from a re-analysis of the deposited data

How the results depend on the processing

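No replicates could be paired because each genotype and time had 1 library. Genotype, already a block in the additive model, was dropped instead. That changed the count of genes called from 2 to 1 at 4h against D0, from 0 to 1 at D7 against D0 and from 3 to 1 at D7 against D2. A filter at RPKM 5, which removes the low ligands, left 0 calls at 4h against D0, 1 at D2 against D0 and 1 at D2 against 4h. At D7 against D0, where the main count was 0, the fit without a filter called 4, DESeq2 3, and limma with a pseudocount of 1 or of 5 called 1; over all genes they called 1429, 2103, 1248 and 1141, against 1018. With a pseudocount of 0.1, 5 genes and not 3 differed 2-fold between Cre and Vec at D2, and 1 and not 0 differed in response at 4h and at D7. Leaving out 1 library gave 0 to 2 calls at 4h, 0 to 5 at D2 and 0 to 2 at D7 against D0, 1 to 5 at D2 against 4h, 0 to 4 at D7 against D2 and 0 to 0 for genotype, while calls over all genes ranged over 0 to 3117, 1018 to 4914, 0 to 1396, 1232 to 4285, 519 to 2736 and 0 to 0 in the same order. Other counts stayed within 1.5 times the main one.

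Among fitted changes, signs turned only for those that the main test did not call. Wnt5a at 4h was 0.039 with no genotype term and -0.40 to 0.40 over the libraries left out; Sfrp1 at 4h was 0.0017 with accessions summed and -0.36 to 0.40. Sfrp2 at D2 against D0 was -0.12, -0.13 and -0.065 in limma (pseudocounts 1, 0.1 and 5) and -1.29 to 1.00 over the libraries left out. Wnt5b at D7 against D2 was -0.0096 in limma with pseudocount 5 and -0.66 to 1.29. Leaving out libraries gave ranges of -0.071 to 0.93 (Sfrp2) and -0.28 to 1.49 (Sfrp4) at 4h, -0.97 to 0.98 for Wnt5b at D2, and -0.66 to 0.14 (Wnt5a) and -0.41 to 1.05 (Wnt5b) at D7, all against D0. They were -1.78 to 0.51 for Sfrp2 at D2 against 4h, -0.40 to 1.07 for Wnt11 at D7 against D2 and -0.19 to 0.46 for Wnt11 between genotypes. The causes were not tested. Single-gene values under alternatives other than a left-out library were fitted changes and Cre against Vec differences, counted together. A fitted change was kept if its sign and side of the threshold stayed, and a difference if it stayed within its counting error. A turned sign of a difference was counted only where the main difference was at least 1. In this sense 535 were kept, 17 moved, 6 turned sign, 11 passed the threshold newly and 6 missed it. With 1 library left out, all values were fitted changes. Of them, 268 kept sign and side of the threshold, 27 turned sign, 10 passed newly and 31 missed it. Depth limits Wnt6, Wnt10a, Wnt10b after D0, Wnt11 at D0 and Axin2 at 4h. All of these rest on few reads apart from Wnt10b in Cre D7, which had 46.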
